A study of Mus musculus with 16 samples.

Results

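The 10 keratin genes described here (Krt7, Krt8, Krt18, Krt19, Krt20, Krt23, Krt5, Krt14, Krt17 and Krt80) were chosen by name, as keratins of simple, basal and differentiated epithelium, among 24467 genes listed in the files. All 10 were found by Entrez identifier, and all 10 were among the 15963 genes with enough counts to be tested. RNA was sequenced from mouse pancreatic cancer cells of the line KPC 7TCF-eGFP/Porcn-DMA PDAC, which had formed tumours in the pancreas of host mice (orthotopic tumours). PDAC stands for pancreatic ductal adenocarcinoma; the labels do not spell out the alleles behind the name KPC, and every group carried the same line and both constructs. Cells were sorted by flow cytometry on their reporters into double-positive (DP), mScarlet-only, GFP-only and double-negative (DN) groups, with 4 libraries from 4 mice in each group and 16 in all. The 7TCF-eGFP reporter is read by TCF factors, so GFP marks the WNT-responsive gate of the series. The mScarlet gate is taken as the WNT-secreting one because it is the gate that remains, and no label says so in words. Host strain, sex and age were not given in the sources used here, all libraries rest on 1 engineered line, and no label names a gate that removes host cells.

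Keratins are the intermediate filament proteins of epithelial cells. A filament is built from pairs of 1 type I and 1 type II chain, so the partners are normally made together. Krt8 with Krt18 is the pair of simple epithelia, and pancreatic ducts and ductal carcinomas also make Krt19 and Krt7. Krt20 is a type I keratin of the gut epithelium and of the umbrella cells of the bladder, and is used in human pathology as a marker of gut-type carcinomas. Krt5 with Krt14 is the pair of basal cells in stratified epithelia, Krt17 is a type I keratin of skin appendages and injured epithelium and is used as a marker of basal-like human PDAC, and Krt80 is a type II keratin of differentiating epithelia. Krt23 is a type I keratin known from human gut and pancreatic tumour cells. These roles are background and not results of these libraries.

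The members lie in both keratin gene clusters of the mouse genome (GRCm38). Krt20 (chr11:99428385-99438153), Krt23 (chr11:99477973-99493120), Krt19 (chr11:100140810-100145926), Krt14 (chr11:100203162-100207510) and Krt17 (chr11:100256215-100261029) are type I genes on chromosome 11. The type II genes Krt80 (chr15:101348315-101370162), Krt7 (chr15:101412403-101427806), Krt5 (chr15:101707069-101712905) and Krt8 (chr15:101996711-102004342) are on chromosome 15, with the type I gene Krt18 (chr15:102028216-102032026) beside Krt8. Of the 100-base windows of the Krt8 transcript, 17.1% also occur in another annotated transcript, nearly all of them in the pseudogene Krt8-ps, so Krt8 counts are uncertain to the extent that reads were split or dropped there. The share of such windows was 3.81% in Krt5 (mostly Krt6a), 2.88% in Krt14 (Krt16) and 2.46% in Krt80 (the overlapping Gm35853), and 0% in the other 6 members.

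Krt20 and Krt23 are neighbours in the chromosome 11 cluster and are the members with the clearest differences below, in opposite directions, so the bases before their starts are shown. These are the 250 bases that precede the start in RefSeq (GRCm38.p6), both on the minus strand, at chr11:99438154-99438403 for Krt20 and chr11:99493121-99493370 for Krt23. Capitals mark each match to TATAAA, the core promoter box, or to CCNCNCC, a box read by SP and KLF factors, searched on both strands.
Krt20: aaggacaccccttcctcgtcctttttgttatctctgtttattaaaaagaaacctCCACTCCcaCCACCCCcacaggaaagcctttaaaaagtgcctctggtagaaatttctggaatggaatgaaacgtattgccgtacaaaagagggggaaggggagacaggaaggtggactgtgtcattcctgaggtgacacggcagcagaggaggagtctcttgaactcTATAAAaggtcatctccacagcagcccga
Krt23: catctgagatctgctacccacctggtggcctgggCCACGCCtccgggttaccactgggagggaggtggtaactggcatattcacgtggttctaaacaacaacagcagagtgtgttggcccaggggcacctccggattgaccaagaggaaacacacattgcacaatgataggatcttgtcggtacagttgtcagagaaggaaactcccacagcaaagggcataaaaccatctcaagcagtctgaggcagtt
The Krt20 window holds TATAAA at position -29, counted back from the start, and the Krt23 window holds none; 12.4% of 32851 promoter windows of this length hold it. CCNCNCC occurs 2 times before Krt20 and 1 time before Krt23, and 65.4% of all windows hold it at least once. Neither window holds the TCF/LEF cores CTTTGA (13.8% of all windows) or CTTTGT (16.5%), nor the AP-1 motif TGANTCA (6.75%). A match or its absence describes these letters only. The table held such a window for 7 of the 10 members.

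Each library held between 80647185 and 104273669 counts over all genes, and between 15476 and 17805 genes had at least 1 count. Levels below are CPM, the counts scaled to a common library total, after TMM scaling, a correction for library composition; p-values come from edgeR's quasi-likelihood test, adjusted over all 15963 genes by the Benjamini-Hochberg method, and "rose" and "fell" are used where the adjusted p was under 0.05. The epithelial marker Cdh1 averaged 1156 ± 247 CPM in DP, 1203 ± 236 in mScarlet-only, 686 ± 336 in GFP-only and 721 ± 175 CPM in DN libraries (SD, n = 4 each). Epcam, another usual epithelial marker, was at 29.0 CPM in GFP-only library 4 and at most 0.474 CPM in each of the other 15 libraries. A set of 3 libraries stood apart. GFP-only library 1 had a summed macrophage marker level of 34900 CPM, against 4325 to 14059 CPM in the other 15 libraries. It also had the highest erythroid marker sum, at 4539 CPM. Much of the macrophage sum in the other 15 libraries is Cd74 and Cd14. Cd74 averaged 3658 (DN) to 6534 CPM (DP), and Cd14 937 (DN) to 1350 CPM (GFP-only). Lyz2, another marker of the list, averaged 1289 CPM in DP, 172 in mScarlet-only, 3201 in GFP-only and 404 CPM in DN libraries. GFP-only library 4 had the highest acinar sum, at 29690 CPM, and the highest fibroblast sum, at 10992 CPM. mScarlet-only library 1 had the largest keratin share of all. A member called between the mScarlet gates, or a large difference of Krt17 or Krt80, may rest on these libraries. Its value without them is then given too, except for the Krt17 interaction.

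The 10 genes together took between 1.45% of all counts, in GFP-only library 1, and 4.12%, in mScarlet-only library 1. Nearly all of that came from the simple-epithelium keratins Krt8, Krt18, Krt19 and Krt7. Per kilobase of transcript, Krt19 ranked number 3 of 15758 genes with a known length over the 16 libraries, Krt8 number 6 and Krt18 number 7. Krt7 ranked number 114 and Krt20 number 278. Krt14 and Krt23 were intermediate, at ranks 2222 and 2352, Krt80 was at 7142 and Krt17 at 9287. Krt5 was near the bottom, at 13194, with 662 counts in all 16 libraries. The 10 members held 99.3% of the CPM of the 54 keratin genes in the files.

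**Figure D1:**
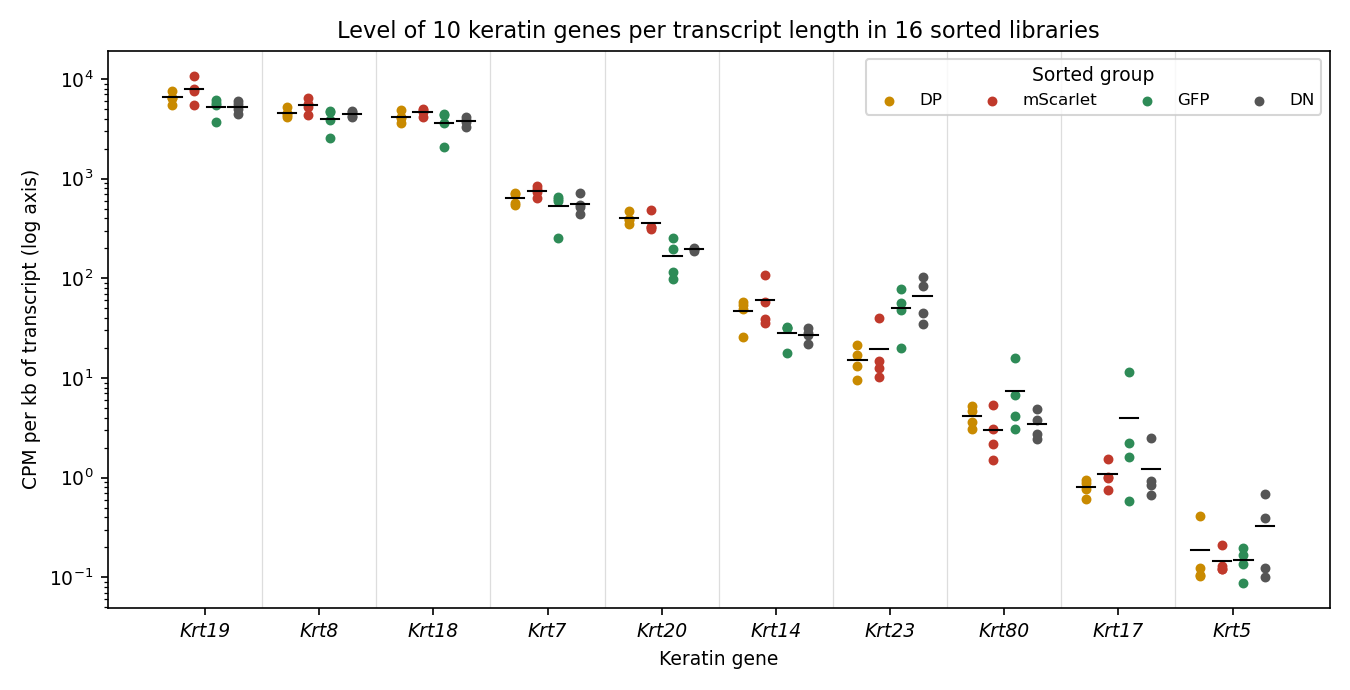
Level of each keratin gene in CPM per kilobase of transcript, on a log axis; each point is 1 library, the short black lines are group means (n = 4), and the groups are DP, mScarlet, GFP and DN from left to right. Krt19, Krt8 and Krt18 lie above the other 7 genes in all groups, and Krt5 lies lowest.

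Among the simple-epithelium keratins, Krt8, the main type II chain, averaged 8971 ± 955 CPM in DP, 10618 ± 1753 in mScarlet-only, 7754 ± 2007 in GFP-only and 8717 ± 597 CPM in DN libraries (SD, n = 4 each here and below). Its partner Krt18 averaged 6009 ± 759 CPM in DP, 6741 ± 514 in mScarlet-only, 5173 ± 1553 in GFP-only and 5423 ± 521 CPM in DN libraries. The level per kilobase of Krt8 over that of Krt18 lay between 1.02 and 1.40 in all 16 libraries, so both chains of the pair were at similar transcript levels throughout. Krt19 averaged 10298 ± 1366 CPM in DP, 12522 ± 3348 in mScarlet-only, 8337 ± 1773 in GFP-only and 8321 ± 1055 CPM in DN libraries. Krt7, a type II keratin of ducts, averaged 2607 ± 358 CPM in DP, 3050 ± 355 in mScarlet-only, 2181 ± 767 in GFP-only and 2281 ± 477 CPM in DN libraries. For each of the 4 genes mScarlet-only had the highest mean, and the ranges of groups next to each other by mean overlapped. For Krt18 the mScarlet-only range, from 6021 CPM up, lay just above the DN range, which ended at 5983 CPM. GFP-only library 1 was the lowest of all 16 libraries for each of them, with 4958 CPM of Krt8, 2976 of Krt18, 5768 of Krt19 and 1037 of Krt7, and it is also the library with the high macrophage sum. Since these are bulk libraries, fewer cells of a type and less RNA per cell cannot be told apart.

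The summed level per kilobase of the 4 type II members was below that of the 6 type I members in every library. The type II to type I ratio was 0.456 to 0.485 in DP, 0.452 to 0.502 in mScarlet-only and 0.473 to 0.505 in GFP-only libraries, and 0.525 to 0.547 in DN libraries. The DN range lay above those of the other 3 groups. The ratio depends on the transcript lengths used (4094 bases for Krt7, of which 1371 code), it was noticed in these data, and no test was run on it.

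The first comparison asked how the mScarlet gate relates to keratin expression, by averaging the contrast of mScarlet-positive (DP and mScarlet-only) with mScarlet-negative (GFP-only and DN) libraries over both GFP states. Of the 10 members, 3 passed the test, against 8.88% of all genes tested. Krt20 and Krt14 rose (3.46% of all genes were called higher) and Krt23 fell (5.43% were called lower). An unadjusted p under 0.05 was reached by 5 members, and DESeq2 called 4 (14.9% of the genes it tested). The median log2 fold change of the 10 members was 0.26, against -0.02 over all genes.

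Krt20, the keratin of gut epithelium, had 917, 683, 759 and 743 CPM in DP libraries and 928, 597, 635 and 628 CPM in mScarlet-only libraries, against 191, 485, 376 and 225 CPM in GFP-only libraries and 381, 364, 390 and 380 CPM in DN libraries. The 8 mScarlet-positive libraries were all above the 8 mScarlet-negative ones, a separation seen in 1.94% of the genes tested. The DN libraries were tightly grouped and the GFP-only libraries were spread on both sides of them. Krt20 was 2.11-fold higher in mScarlet-positive libraries (log2 fold change of 1.08 with an SE of 0.17; edgeR adjusted p = 0.0019). Without GFP-only libraries 1 and 4 and mScarlet-only library 1 together, the log2 fold change was 0.77 (edgeR adjusted p = 0.0028).

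Krt14, the basal type I keratin, had 97.5, 91.8, 44.1 and 83.3 CPM in DP libraries and 182, 99.3, 66.0 and 61.2 CPM in mScarlet-only libraries, against 30.5, 55.5, 53.8 and 53.8 CPM in GFP-only libraries and 48.5, 53.4, 46.2 and 37.3 CPM in DN libraries. DP library 3 lay within the range of the mScarlet-negative libraries and the other 7 mScarlet-positive libraries lay above it, mScarlet-only library 1 farthest. It was 1.90-fold higher in mScarlet-positive libraries (log2 fold change of 0.92 with an SE of 0.23; edgeR adjusted p = 0.0225). This call is the weakest of the 3: it was lost without DP library 2 or DN library 4 (log2 fold change 0.69 to 1.01 over the 16 fits that leave out 1 library), without GFP-only libraries 1 and 4 (0.83, edgeR adjusted p = 0.0874), and without those and mScarlet-only library 1 (0.61, edgeR adjusted p = 0.118).

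Krt23 went the other way. It had 26.4, 14.8, 20.5 and 33.8 CPM in DP libraries and 15.8, 19.9, 22.9 and 62.9 CPM in mScarlet-only libraries, against 121, 76.1, 31.3 and 88.7 CPM in GFP-only libraries and 162, 70.1, 54.4 and 131 CPM in DN libraries. All DP libraries were below all DN libraries, a separation seen in 13% of the genes tested. DP library 4 and mScarlet-only library 4 reached into the range of the mScarlet-negative libraries. GFP-only library 3 and DN library 3 reached into that of the mScarlet-positive ones. The level was 3.38-fold lower in mScarlet-positive libraries (log2 fold change of -1.76 with an SE of 0.35; edgeR adjusted p = 0.0071). The call was lost without GFP-only libraries 1 and 4 and mScarlet-only library 1 together (log2 fold change -1.38, edgeR adjusted p = 0.0566), and held in the 22 other alternative fits.

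**Figure D2:**
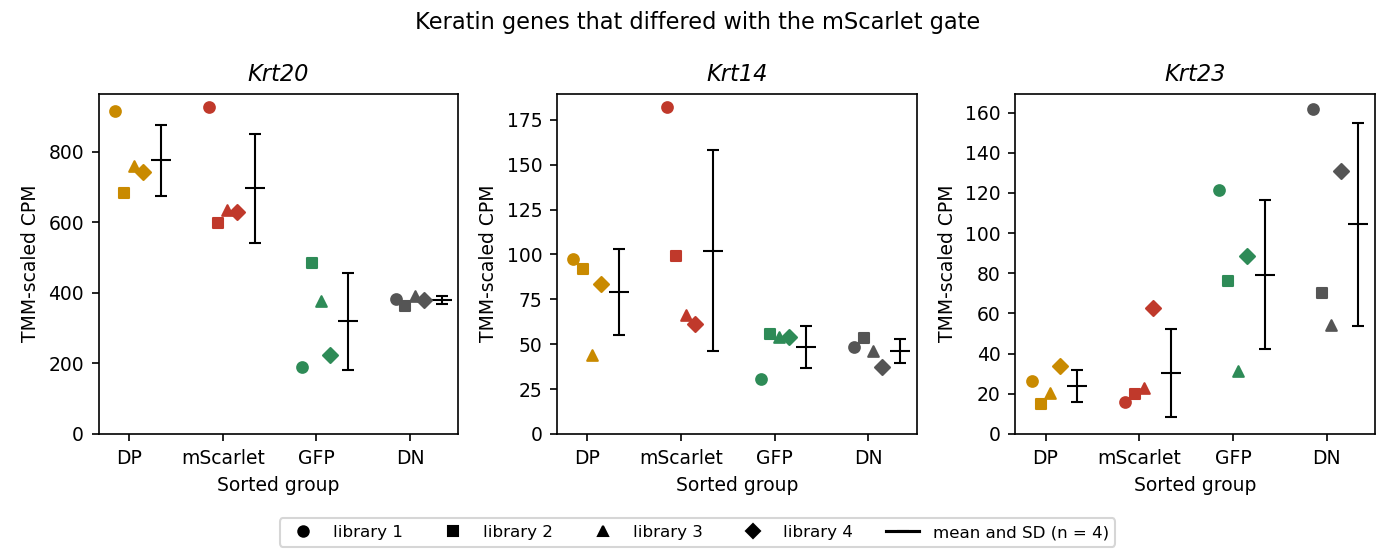
TMM-scaled CPM of Krt20, Krt14 and Krt23 in each library of the DP, mScarlet, GFP and DN groups (symbols give the library number; bars are the mean and SD, n = 4). The 8 DP and mScarlet libraries of Krt20 lie between 597 and 928 CPM, above all GFP and DN libraries, while for Krt23 the DP libraries, at 14.8 to 33.8 CPM, lie below the DN libraries.

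The other 7 members did not pass. Krt19 came closest, with a log2 fold change of 0.45 (SE 0.14, edgeR adjusted p = 0.0558); DESeq2 called it (0.42, adjusted p = 0.0312). The log2 fold change was 0.34 for Krt7 (SE 0.17), 0.26 for Krt18 (SE 0.13) and 0.25 for Krt8 (SE 0.12), with edgeR adjusted p-values of 0.236, 0.237 and 0.239. All 4 simple-epithelium keratins therefore had positive estimates that were not separated from 0 after adjustment. Krt17 had -1.25 (SE 0.51, edgeR adjusted p = 0.138), which became -0.53 without GFP-only library 4 (edgeR adjusted p = 0.452) and -0.84 without the 3 libraries named above (0.313). Krt80 had -0.53 (SE 0.34, edgeR adjusted p = 0.371), which became -0.20 without GFP-only library 1 (0.742), -0.0021 without GFP-only libraries 1 and 4 and -0.22 without the 3 libraries (0.720). Krt5 had -0.42 (SE 0.57, edgeR adjusted p = 0.714).

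**Figure D3:**
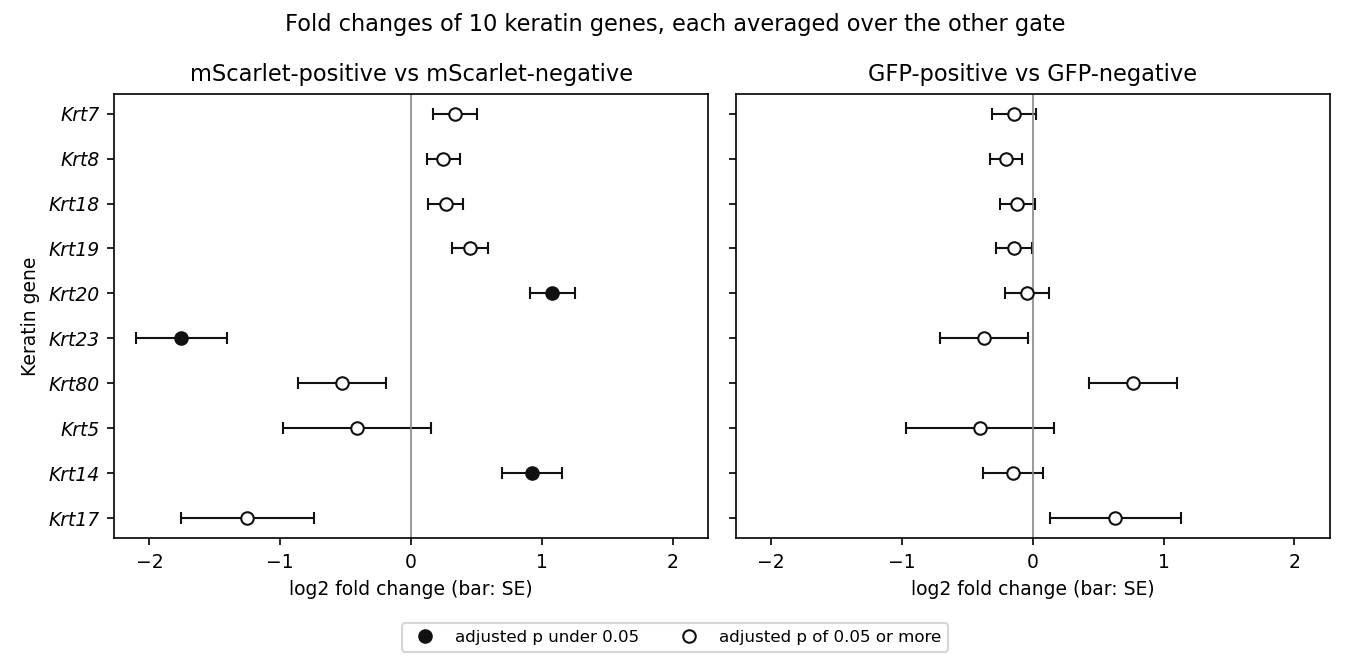
Log2 fold change with its SE for the 10 keratin genes, left for mScarlet-positive over mScarlet-negative libraries and right for GFP-positive over GFP-negative libraries (8 libraries on each side); filled points have an edgeR adjusted p under 0.05. The filled points are Krt20 at 1.08, Krt14 at 0.92 and Krt23 at -1.76 on the left, and there is none on the right.

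Markers of other cell types also moved with the mScarlet gate. The summed fibroblast marker level was 34.5 to 299 CPM in DP and 19.6 to 95.5 in mScarlet-only libraries, against 670 to 10992 in GFP-only and 143 to 1607 CPM in DN libraries; 9 of 14 fibroblast markers were called lower, and none was at 0 in a whole group. Acinar markers summed to 48.9 to 202 CPM in DP and 76.8 to 1513 in mScarlet-only libraries, against 389 to 29690 in GFP-only and 101 to 1002.5 CPM in DN libraries, with 7 of 16 called lower. Of the mesothelial markers 4 of 9 were called lower, with sums of 1191 to 1684 CPM in DP, 1459 to 1724 in mScarlet-only, 1044 to 1957 in GFP-only and 1485 to 1618 CPM in DN libraries. Nearly all of that sum is Msln, the mesothelin gene, which averaged 1476 CPM in DP and 1622 in mScarlet-only libraries, against 1442 in GFP-only and 1532 CPM in DN libraries, with a log2 fold change of 0.06 (SE 0.12, edgeR adjusted p = 0.822). The 4 called were Aldh1a2, Wt1, Upk3b and Upk1b; Aldh1a2, a retinoic acid synthesis enzyme, averaged 2.57 CPM in DP and 0.354 in mScarlet-only libraries, against 53.1 in GFP-only and 6.77 CPM in DN libraries. Calb2 was at 0 in all DP, Upk1b in all mScarlet-only and Gpm6a in all DN libraries. None of the tested macrophage (15), endothelial (11), lymphocyte (11) and erythroid (4) markers was called by edgeR (unadjusted p under 0.05 in 2, 2, 0 and 0; DESeq2 called 1, 1, 0 and 0). The part of these cells in the keratin differences was not tested.

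Each keratin was also set against Krt8 in the same library, a scale that does not depend on the library total. Krt20 had 66.3 to 109 counts per 1000 Krt8 counts in DP and 54.3 to 73.8 in mScarlet-only libraries, against 29.5 to 52.4 in GFP-only and 40.5 to 46.7 in DN libraries. The mScarlet-positive and mScarlet-negative ranges again did not overlap, and GFP-only library 1, whose Krt20 CPM was lowest, had a ratio of 38.5 that lay inside the range of its group. Krt23 had 1.44 to 4.15 counts per 1000 Krt8 counts in DP and 1.2 to 7.39 in mScarlet-only libraries, against 3.42 to 24.5 in GFP-only and 6.52 to 17.9 in DN libraries. Krt14 had 4.90 to 11.5 in DP and 6.46 to 14.3 in mScarlet-only libraries, against 5.87 to 7.05 in GFP-only and 3.98 to 6.59 in DN libraries, so its groups overlapped more on this scale than in CPM. The count of Krt20 over that of Krt23 was 22.0 to 46.1 in DP and 9.99 to 58.6 in mScarlet-only libraries, against 1.57 to 12.0 in GFP-only and 2.36 to 7.16 in DN libraries.

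**Figure D4:**
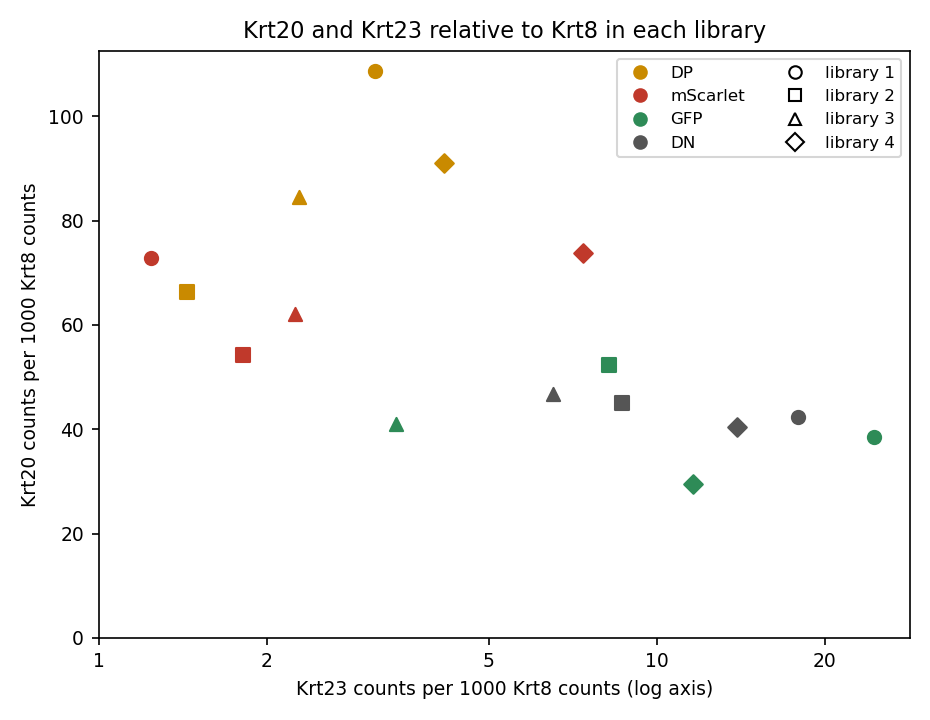
Krt20 (vertical axis) and Krt23 (horizontal log axis) counts per 1000 Krt8 counts in each of the 16 libraries; colour gives the sorted group and symbol the library number. DP and mScarlet libraries lie at 54.3 or more on the Krt20 axis and at 7.39 or less on the Krt23 axis.

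The low and uneven members were Krt17, Krt80 and Krt5. Krt17 had 1.39, 1.45, 0.944 and 1.20 CPM in DP, 2.39, 1.59, 1.53 and 1.16 in mScarlet-only, 0.896, 3.42, 2.5 and 17.8 in GFP-only and 1.32, 1.04, 1.44 and 3.86 CPM in DN libraries. The highest value was in GFP-only library 4, the library with the highest acinar and fibroblast sums. Library 4 was also highest in DN. There its fibroblast sum was the highest of the group, at 1607 CPM, and its acinar sum the lowest, at 101 CPM. Whether these cells carry the Krt17 counts was not tested. Krt80 had 15.9, 11.0, 14.4 and 9.35 CPM in DP, 16.6, 9.45, 6.67 and 4.57 in mScarlet-only, 49.0, 9.36, 12.6 and 20.5 in GFP-only and 15.0, 8.46, 11.7 and 7.55 CPM in DN libraries. Its highest value was in GFP-only library 1, where the simple-epithelium keratins were lowest and the macrophage sum was highest; the part of macrophages in it was not tested. Krt5 had 0.910, 0.226, 0.230 and 0.271 CPM in DP, 0.269, 0.466, 0.266 and 0.286 in mScarlet-only, 0.438, 0.299, 0.368 and 0.195 in GFP-only and 1.52, 0.270, 0.221 and 0.873 CPM in DN libraries. Krt14 outnumbered its basal partner Krt5 by 31.8 to 676 counts per Krt5 count, on transcripts of 1698 and 2197 bases, so in no library were these 2 chains at similar levels.

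**Figure D5:**
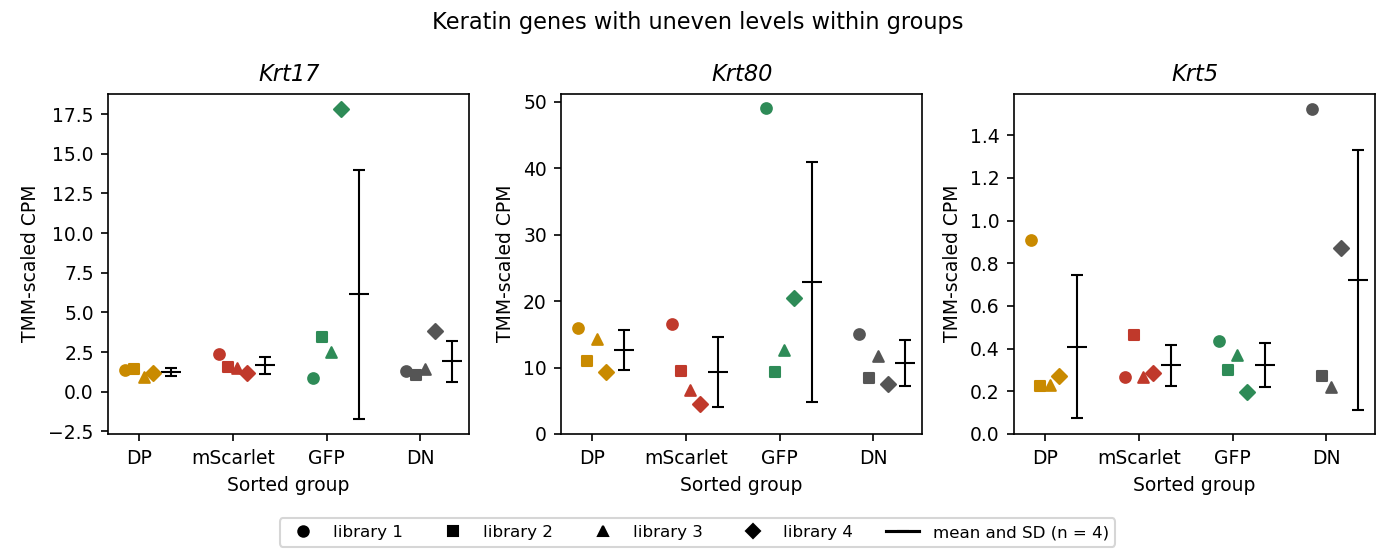
TMM-scaled CPM of Krt17, Krt80 and Krt5 in each library of the DP, mScarlet, GFP and DN groups (symbols give the library number; bars are the mean and SD, n = 4). Single libraries stand far above their group: GFP library 4 for Krt17, at 17.8 CPM, and GFP library 1 for Krt80, at 49.0 CPM.

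The second comparison asked how the WNT reporter gate relates to the keratins, with GFP-positive (DP and GFP-only) against GFP-negative (mScarlet-only and DN) libraries averaged over both mScarlet states. None of the 10 members passed in edgeR, as for 0% of all genes; 1 member had an unadjusted p under 0.05, and DESeq2 called none (2.05% of all genes). That member was Krt80, with a log2 fold change of 0.77 (SE 0.34, edgeR adjusted p = 0.466), and 0.23 without GFP-only libraries 1 and 4. The log2 fold change was 0.63 for Krt17 (SE 0.50), but -0.088 without GFP-only library 4 and 0.10 without GFP-only libraries 1 and 4. It was -0.05 for Krt20 (SE 0.17), -0.37 for Krt23 (SE 0.34) and -0.15 for Krt14 (SE 0.23). For the simple-epithelium keratins it was -0.21 for Krt8 (SE 0.12), -0.12 for Krt18 (SE 0.13), -0.14 for Krt19 (SE 0.14) and -0.15 for Krt7 (SE 0.17). Krt5 had -0.40 (SE 0.57). Of the macrophage markers 14 of 15 had an unadjusted p under 0.05 in this comparison, with 0 called by edgeR and 5 by DESeq2, and of the fibroblast markers 9 of 14, with 0 and 1 called. Of the mesothelial markers 5 of 9 had an unadjusted p under 0.05, with 0 called by edgeR and 2 by DESeq2, and the median log2 fold changes of these 3 lists were 2.20, 2.34 and 2.25, against 0.01 over all genes. The median was 2.51 for erythroid, 1.33 for endothelial, 1.06 for acinar and -0.90 for lymphocyte markers. An unadjusted p under 0.05 was reached by 0, 1, 0 and 1 of these markers, and edgeR called 0. The part of these cells in the keratin values was not tested. The SE of these estimates bounds what could be seen: for Krt20 the GFP estimate and its SE were both small beside the mScarlet difference of 1.08.

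The gate comparisons between single groups share libraries with each other and with the averages above, so they are given side by side and not counted as separate support. In DP against DN libraries, 2 of 10 members passed (2.13% of all genes): Krt20 rose, with a log2 fold change of 1.03 (SE 0.24, edgeR adjusted p = 0.0364), and Krt23 fell, with -2.13 (SE 0.50, edgeR adjusted p = 0.0372). DESeq2 also called 2 members here (6.48% of all genes). Both edgeR calls were lost in some of the fits that leave out 1 library: Krt20 without any 1 DP or DN library (log2 fold change 0.94 to 1.08, edgeR adjusted p 0.0569 to 0.137), and Krt23 without DP library 1, 2 or 3, DN library 1 or 4, or mScarlet-only library 3 (-2.18 to -1.84, edgeR adjusted p 0.0505 to 0.145). In GFP-only against mScarlet-only libraries, 1 member passed (1.82% of all genes), Krt20, with -1.13 (SE 0.24, edgeR adjusted p = 0.0335). DESeq2 called 3 here, Krt20, Krt23 and Krt14 (9.64% of all genes), and the block on library number also 3 (7.38% of all genes). In edgeR without the block Krt23 had 1.38 (SE 0.49, edgeR adjusted p = 0.130), Krt14 -1.08 (SE 0.33, 0.0904) and Krt80, the third with the block, 1.29 (SE 0.48, 0.152). Without GFP-only libraries 1 and 4 these were 0.83, -0.90 and 0.24. The edgeR call of Krt20 was lost without GFP-only library 1 or 4 or without mScarlet-only library 1, 2 or 3 (-1.19 to -0.94, edgeR adjusted p 0.0561 to 0.106), and the log2 fold change was -0.53 without GFP-only libraries 1 and 4 and mScarlet-only library 1. In DP against GFP-only libraries, 1 member passed (0.445% of all genes), again Krt20, with 1.28 (SE 0.24, edgeR adjusted p = 0.0390); it was lost without DP library 1, 2 or 3, GFP-only library 1 or 4, DN library 2, 3 or 4, or mScarlet-only library 2 or 3 (1.09 to 1.34, edgeR adjusted p 0.0534 to 0.146). DESeq2 called 3 here, Krt20, Krt23 and Krt17 (6.41% of all genes). In edgeR Krt17 had -2.31 (SE 0.74, edgeR adjusted p = 0.135), and -0.86 without GFP-only library 4.

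In mScarlet-only against DN libraries, none of the 10 members passed in edgeR (0.996% of all genes did), 4 had an unadjusted p under 0.05, and DESeq2 called 3 (5.13% of all genes). Krt20 had a log2 fold change of 0.88 (SE 0.24, edgeR adjusted p = 0.0906), Krt14 1.14 (SE 0.33, 0.110) and Krt23 -1.78 (SE 0.49, 0.0950). All 4 mScarlet-only libraries were above all 4 DN libraries for Krt20, Krt14 and Krt18, a separation that 11.1% of all genes showed. For Krt18 the gap was narrow, with 6021 CPM in the lowest mScarlet-only and 5983 CPM in the highest DN library. Its log2 fold change was 0.31 (SE 0.19, edgeR adjusted p = 0.478). With the library number as a block, Krt23 passed here (log2 fold change -1.77, edgeR adjusted p = 0.0166; 5.1% of all genes passed). It also passed with the block in DP against GFP-only libraries, where 4.96% of all genes did (-1.69, edgeR adjusted p = 0.0214, against -1.73 and 0.0927 without it). In GFP-only against DN libraries none of the 10 passed in edgeR (0% of all genes), 2 had an unadjusted p under 0.05 and DESeq2 called none (1.56% of all genes). In DP against mScarlet-only libraries none passed in edgeR (0% of all genes), none had an unadjusted p under 0.05, and DESeq2 called none (0.318% of all genes).

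Whether the mScarlet difference itself depended on the GFP gate was tested as an interaction. None of the 10 members passed in edgeR (0% of all genes), none had an unadjusted p under 0.05, and DESeq2 called none (0.241% of all genes). The interaction on the log2 scale was 0.40 for Krt20 (SE 0.34), 0.05 for Krt23 (SE 0.67), -0.43 for Krt14 (SE 0.46) and -2.11 for Krt17 (SE 1.01). These errors are wide, and differences of that order between the GFP states were not detectable with 4 libraries a group. The Krt17 value takes in GFP-only library 4, at 17.8 CPM, and no value without that library is given.

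Genes that work with keratins were read in the same mScarlet-positive against mScarlet-negative comparison. Desmosomes, the junctions in which keratin filaments end, had 5 of 12 tested genes called higher and 0 lower, against 3.46% and 5.43% of all genes. They were Perp (log2 fold change 0.86, SE 0.18, edgeR adjusted p = 0.0089), a membrane protein of desmosomes; Dsp (1.12, SE 0.27, 0.0186), the desmoplakin that binds keratin filaments; the cadherins Dsg2 (1.60, SE 0.39, 0.0189) and Dsc2; and Pkp4 (0.76, SE 0.19, 0.0203), a plakophilin. The median log2 fold change of the 12 genes was 0.63, against -0.02 over all genes. Dsp averaged 20.6 ± 4.63 CPM in DP and 23.7 ± 7.37 in mScarlet-only libraries, against 11.7 ± 6.91 in GFP-only and 8.78 ± 2.22 CPM in DN libraries. Dsg2 averaged 54.9 ± 24.8 CPM in DP and 43.7 ± 29.3 in mScarlet-only libraries, against 13.8 ± 8.85 in GFP-only and 19 ± 3.09 CPM in DN libraries.

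Of the keratin anchors and hemidesmosome genes, none of 10 passed in edgeR, 4 had an unadjusted p under 0.05 and DESeq2 called 3. The 2 with the highest CPM, the laminin chain Lamb3 and the plakin Plec, had log2 fold changes of 0.62 (SE 0.19, edgeR adjusted p = 0.0525) and -0.33 (SE 0.12, 0.0945). Other intermediate filament genes had 1 of 8 called lower and 0 higher, Lmna, the nuclear lamin A gene, at -0.59 (SE 0.11, edgeR adjusted p = 0.0059). Lmna averaged 1827 ± 231 CPM in DP and 1930 ± 185 in mScarlet-only libraries, against 2776 ± 268 in GFP-only and 2869 ± 746 CPM in DN libraries. None of 11 squamous differentiation genes passed in edgeR (unadjusted p under 0.05 in 2, DESeq2 2); the one with the highest CPM, Sprr1a, a cornified envelope gene, had 0.06 (SE 0.24). Among factors that drive epithelial keratin programmes, 1 of 13 was called higher, Klf4, at 0.67 (SE 0.14, edgeR adjusted p = 0.0088), and Trp63, the basal cell factor, averaged 0.195 ± 0.266 CPM in DP, 0.0221 ± 0.0361 in mScarlet-only, 0.126 ± 0.251 in GFP-only and 0.229 ± 0.445 CPM in DN libraries. Of the simple epithelium markers 3 of 15 were called higher, Spint2 (0.64, SE 0.15, edgeR adjusted p = 0.0182), Cdh1 (0.75, SE 0.22, 0.0459) and Ocln (1.05, SE 0.30, 0.0393). The estimate was positive for 7 of the 15 and the median log2 fold change was -0.62, against -0.02 over all genes; Cldn7 (-5.08, SE 1.80, edgeR adjusted p = 0.0908) and Epcam (-2.97, SE 1.40, 0.207) were among the low genes that did not pass. Both were uneven in GFP-only libraries. Cldn7 averaged 11.3 ± 22.1 CPM there, with a maximum of 44.5 CPM and 2 libraries at 0. Epcam averaged 7.37 ± 14.4 CPM there, with a maximum of 29.0 CPM. In the GFP-positive against GFP-negative comparison edgeR called no gene of these 6 lists; an unadjusted p under 0.05 was reached by 3 simple epithelium markers, 2 squamous genes and 1 gene in each of the other 4 lists, and DESeq2 called 1 keratin anchor.

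Over the 16 libraries, the simple-epithelium keratins varied together on the log2(CPM + 1) scale, with Pearson r = 0.94 for Krt7 with Krt18 and 0.92 for Krt8 with Krt18. The lowest values among them were 0.78 for Krt18 with Krt19 and 0.71 for Krt7 with Krt19. Both were below the value for Krt19 with the basal keratin Krt14 (r = 0.81). Krt20 and Krt23 ran opposite to each other (r = -0.76). These correlations pool the 4 groups, whose means differ, and are given as descriptions. The genes most like Krt20 among 8091 candidates with a mean of at least 10 CPM were Fbp2 (r = 0.95), a fructose bisphosphatase, Cyp3a13 (0.95), a cytochrome P450, and Arhgap26 (0.95). For Krt23 they were Mmd (r = 0.97), Birc5 (0.97), the survivin gene of dividing cells, and Add2 (0.97), an adducin. Krt14 was most like Pdlim1 (r = 0.90), Slc52a3 (0.86), a riboflavin transporter, and Lypd8 (0.85). Krt8 and Krt18 shared Hgfac as the closest gene (r = 0.95 and 0.94), followed for Krt8 by Misp and Rac3 (0.93 each) and for Krt18 by Sdcbp2 (0.94) and Avpi1 (0.93). Krt19 was most like Spire2 and Paqr4 (r = 0.93 each) and Porcn (0.90), the acyltransferase needed for WNT secretion that the name of the engineered line carries. Krt7 was most like Upk3bl, Mien1 and Pigyl (r = 0.91 each). Krt17 was most like Tnxb (r = 0.93), Mmp23 (0.92) and Clec3b (0.92), and Krt80 like Pald1 (0.88), Crat (0.88) and Myo1g (0.87).

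Of the 44 other keratin genes in the files, 27 were tested. The 3 with the highest mean were Krt79 at 119 CPM, Krt32 at 37.4 CPM and Krt16 at 8.57 CPM on average, and none of them was called in either averaged comparison. Their log2 fold changes between mScarlet-positive and mScarlet-negative libraries were 0.14 (SE 0.14), 0.37 (SE 0.16) and 0.35 (SE 0.21).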

How the data were processed

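The deposited files hold raw read counts per gene, 1 column of counts per library, by Entrez identifier. Gene symbols were matched to these identifiers from RefSeq. The authors aligned with STAR and used DESeq2 1.24.0 on GRCm38/mm10, per the submitters' processing notes. For the counter, annotation, strandedness and filters the labels give nothing. Libraries were made from low-input RNA by full-length cDNA synthesis with PCR amplification, per the labels' protocols, and read in pairs of 100 bases; reads carry no molecular identifiers, so PCR copies count as reads. The 30 rows without a symbol held 0.723% to 1.93% of the counts. They were not removed, so those with enough counts entered library sizes and tests.

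Counts were tested with edgeR 4.0.16 (R 4.3.3): low-count filter by group, TMM scaling, quasi-likelihood fit of the 4 group means over all 16 libraries, Benjamini-Hochberg adjustment over 15963 genes and a threshold of 0.05. CPM uses the TMM-scaled totals of the tested genes. Levels per kilobase use the annotated transcript that RefSeq and GENCODE share on GRCm38. Alternatives were DESeq2 1.42.0, its size factors in edgeR, no low-count filter, the library number as a block, fits of the compared groups only, each library left out, GFP-only libraries 1 and 4 left out, and, chosen after seeing the data, robust estimation and the further removal of mScarlet-only library 1. No replicates were near-identical (smallest chi-square per degree of freedom 98.0). The script was tested on simulated data.

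Libraries carry numbers 1 to 4 in every group, which no label ties to a mouse. Deviations from the group means correlated at r over 0.1 in 23 of 24 same-numbered pairs (median 0.29, lowest 0.09, GFP-only with mScarlet-only library 4). The median was -0.14 in 72 other pairs, so same-numbered libraries tended to vary together. The main fit had no term for the number, so its p-values and SE ignore this pairing in every comparison. The block on library number was fitted only as an alternative.

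All 10 members were named; fold changes are given for all in the averaged comparisons and elsewhere for those called there or in an alternative. The closest genes are the 3 of highest Pearson r with no keratin gene among them. From each other list up to 4 called genes of smallest p, or the 2 most abundant where none was called, were eligible to be named, and a few beyond that rule (Dsc2, Epcam, Cldn7, Trp63 and Msln, and the interaction values of 4 members) were chosen after their values were seen. The members and lists were chosen with earlier results of these data known.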

Additional observations from a re-analysis of the deposited data

Results flagged for a closer look

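Of 40 sets of 4 libraries (10 keratin genes in 4 groups), 8 held a library far from the other 3 by Dixon's criterion for 4 values (0.829); chance alone marks about 1 set in 20. GFP-only library 1 had 1037 CPM of Krt7, where the other 3 of its group had 2469 to 2676, and 30.5 CPM of Krt14, where the others had 53.8 to 55.5. mScarlet-only library 1 had 928 CPM of Krt20, where the others had 597 to 635. mScarlet-only library 4 had 62.9 CPM of Krt23, where the others had 15.8 to 22.9. Krt17 had 17.8 CPM in GFP-only library 4, with 0.896 to 3.42 in the others, and 3.86 CPM in DN library 4, with 1.04 to 1.44 in the others. Krt5 had 0.910 CPM in DP library 1, with 0.226 to 0.271 in the others, and 0.466 CPM in mScarlet-only library 2, with 0.266 to 0.286 in the others.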

How the results depend on the processing

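Krt20 between mScarlet-positive and mScarlet-negative libraries passed in all 23 alternative fits (log2 fold change 0.77 to 1.21), Krt23 in 22 and Krt14 in 19. Without GFP-only libraries 1 and 4 and mScarlet-only library 1 together, 1 member instead of 3 passed there; that fit has fewer samples, and the cause was not tested. With 1 library left out, 2 to 4 members passed in this comparison, 0 to 1 in mScarlet-only against DN, 0 to 2 each in DP against DN, GFP-only against mScarlet-only and DP against GFP-only, and 0 to 0 in the other 4. In mScarlet-only against DN (0 passed), DESeq2 called 3, and 1 passed with the replicate block, in a fit of those groups only, without GFP-only libraries 1 and 4, and without the 3 libraries. In GFP-only against mScarlet-only (1 passed), DESeq2 called 3 and the replicate block 3 (Krt23 and Krt80 beside Krt20), while 0 passed in a fit of those groups only, without GFP-only libraries 1 and 4, and without the 3 libraries. In DP against GFP-only (1 passed), DESeq2 called 3 and the replicate block 2, and 0 passed in the same 3 smaller fits. The block changed no other count of members called.

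Estimates that changed sign all belong to the GFP-positive against GFP-negative comparison, in which none passed. Without GFP-only libraries 1 and 4, the log2 fold change was 0.018 for Krt18 and 0.17 for Krt20. Without the 3 libraries it was 0.023 for Krt18, 0.025 for Krt19, 0.24 for Krt20 and 0.14 for Krt14. With 1 library left out it spanned -0.24 to 0.064 for Krt14, -0.088 to 0.94 for Krt17 and -0.19 to 0.037 for Krt20. Depth limits Krt5 most, at 111 to 293 counts per group.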

Other observations

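Outside the 10 members, 6 of the 27 other tested keratin genes (22.2%) were called between mScarlet-positive and mScarlet-negative libraries, all 6 lower, where 5.43% of all genes were called lower; these genes were picked out after their values were seen. All 6 are type I genes on chromosome 11, and 4 of them, Krt33a, Krt33b, Krt34 and Krt31, keratins of hair and nail, are neighbours between 100011199 and 100050551 (GRCm38). Krt33b had 2, 0, 1 and 33 counts in DP libraries and 1, 3, 2 and 0 in mScarlet-only libraries, against 780, 530, 130 and 72 in GFP-only libraries and 1001, 718, 191 and 502 in DN libraries. The 8 mScarlet-positive libraries, with at most 0.372 CPM, lay below the 8 mScarlet-negative ones, with at least 0.878 CPM, and the fitted log2 fold change was -6.84 (SE 0.99, edgeR adjusted p = 0.0012). Krt33a had 1 count in all mScarlet-positive libraries together, against 516 in all mScarlet-negative libraries (edgeR adjusted p = 0.0089). Krt34 had 2 counts against 113 (0.0090) and Krt31 17 against 186 (0.0436), counted in the same way. Krt27, a hair root keratin, had 29 counts in mScarlet-positive libraries against 693 in mScarlet-negative libraries (edgeR adjusted p = 0.0300), and Krt13, a keratin of stratified mucosa, had 2988 against 8191 (log2 fold change -1.21, SE 0.29, edgeR adjusted p = 0.0184). These totals hide uneven libraries. Krt33a had 57, 57, 1 and 49 counts in GFP-only and 232, 9, 0 and 111 in DN libraries. Krt27 had 270, 75, 5 and 0 in GFP-only libraries, against 16 in DP library 2. Krt31 had 3 in GFP-only library 4, against 5 in mScarlet-only library 1. In CPM the mScarlet-positive and mScarlet-negative libraries overlapped for Krt33a, Krt31, Krt27 and Krt13, and did not for Krt34. The Krt34 gap rests on very few counts. It had 17, 28, 2 and 3 counts in GFP-only libraries, against 1 each in DP library 1 and mScarlet-only library 3. A separation like those of Krt33b and Krt34 was seen in 1.94% of all genes tested. Krt33a and Krt33b are close copies, so how counting split their reads is uncertain.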
